A study of Mus musculus with 5 samples.

Results

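A set of 37 genes was near silent in control RAW264.7 cells and reached a low but measurable level in the cells that carried CD137. The genes were chosen by their values: below 0.5 FPKM in the control library and at 1 FPKM or more in both CD137 libraries, with Lcn2 and Cxcl10, which also met these limits, left out by name. FPKM scales fragments to transcript length and to the mapped fragments of the library, so levels can be compared between genes. The 37 genes are a small share of the 16003 genes with a value and of the 5074 genes below 0.5 FPKM in the control. Because these same values chose the genes, the difference between CD137 and control cells is described for them and not tested.

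RAW264.7 is a mouse monocyte/macrophage cell line. The CD137 cells carried mouse Cd137 in addition to Renilla luciferase, and the control cells carried Renilla luciferase only, so the luciferase is common to both groups. The series has 3 CD137 samples and 2 control samples, and the table used here holds CD137 replicates 2 and 3 and control replicate 2; CD137 replicate 1 and control replicate 1 were not analysed here. How the genes were introduced, their promoter, and whether the cells are 1 clone or a pool are not stated in the labels. Nothing says that replicates were grown as separate cultures, and p-values below then reflect only how far these libraries differ, perhaps for technical reasons.

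CD137, also called 4-1BB, belongs to the TNF receptor superfamily and is best known as a co-stimulatory receptor of activated T cells. When engaged it recruits TRAF adaptor proteins, which activate NF-kB and MAP kinases, and NF-kB in macrophages switches on cytokines, survival factors and other inflammatory genes. Tnfrsf9, which encodes CD137, was at 364 and 370 FPKM in CD137 replicates 2 and 3, against 5.06 FPKM in the control. Throughout, the pair of CD137 values is given in the order replicate 2, replicate 3.

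The label of the set, genes detected only with CD137, did not hold in the strict sense. Only Gstt4 and Hist2h2aa2 were listed at 0 FPKM in the control; the other 35 genes were above 0 there, and 28 of the 37 were at 0.25 FPKM or more. The set is therefore called here the near-silent genes that reached 1 FPKM. All 7 macrophage markers were present, and their summed level was 1704 and 1752 FPKM in CD137 cells, against 2837 FPKM in the control. They did not move as one: Lyz2, Csf1r and Cd68 fell, Fcgr1, Itgam and Adgre1 rose, and Spi1 did not pass the test (limma over expressed genes, adjusted p under 0.05). The lysozyme Lyz2 carried the lower sum, at 646 and 669 FPKM against 1693 FPKM, while the Fc receptor Fcgr1 was at 89.9 and 95.2 FPKM against 45.2 FPKM. CD137 replicate 2 stood apart in epithelial markers. Over the 6 epithelial and keratinocyte markers with a value, of 7 listed, the sum was 6.43 and 1.17 FPKM in CD137 cells, against 0.71 FPKM in the control, and it was carried by the keratins Krt8 (2.60 and 0.66 FPKM, against 0.25 FPKM) and Krt18 (2.59 and 0.37 FPKM, against 0.32 FPKM). At lower levels, Epcam (0.44 and 0.08 FPKM, against 0.03 FPKM) and Cdh1 (0.65 and 0.06 FPKM, against 0.07 FPKM) were also highest in CD137 replicate 2. Krt5 was at 0 in CD137 replicate 3 and in the control, and Krt14 had no value. The fibroblast and osteoblast sum, over 4 of 5 markers, was 0.77 and 0.21 FPKM in CD137 cells, against 0.17 FPKM in the control, with Dcn at 0.50 and 0.06 FPKM against 0.06 FPKM. The part of such transcripts in the near-silent genes was not tested. In bulk RNA, more cells of a type and more RNA per cell cannot be told apart.

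Of the 5074 near-silent genes in the control, 39 reached 1 FPKM in both CD137 libraries, which is 0.769 percent, and 37 remained after leaving out Lcn2 and Cxcl10. Most of the others stayed silent, since 4688 genes, or 92.4 percent, were below 0.5 FPKM in both CD137 libraries. The 5037 near-silent genes outside the set had a median CD137 level of 0.05 FPKM. A further 35 near-silent genes were at 1 FPKM or more in just 1 CD137 library. Turned round, the rule found 4 genes at 1 FPKM or more in the control and below 0.5 FPKM in both CD137 libraries. These were H3f3c, Plxdc1, Mdk and Myh7b. The rule is not symmetrical, since it asks for 2 libraries on the CD137 side and 1 on the control side. Between the CD137 libraries themselves, 24 genes were below 0.5 FPKM in 1 library and at 1 FPKM or more in the other.

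The levels reached were low. The 37 genes ran from 1.0 to 3.09 FPKM in CD137 replicate 2 (median 1.36) and from 1.02 to 4.18 FPKM in CD137 replicate 3 (median 1.4), against 0 to 0.48 FPKM in the control (median 0.35). The groups do not overlap for any of the 37, which the rule fixes. For the 35 genes above 0 in the control, the CD137 mean was 2.54-fold to 15.2-fold the control value, with a median of 4.26-fold. On the log2(FPKM + 1) scale the difference, CD137 minus control, ran from 0.54 to 1.81 with a median of 0.87; that scale holds back low genes, and with 0.1 FPKM added in place of 1 the median was 1.86. Only 4 genes were at 2 FPKM or more in both CD137 libraries: Hvcn1, Wdr66, Cish and Gstt4. The 2 CD137 libraries lay within 1.25-fold of each other for 26 genes, and 22 genes were higher in replicate 3 than in replicate 2. They were 1.5-fold or more apart for 4 genes, Hist2h2aa2, Gm5483, Clec4n and Bcl2a1c.

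**Figure D1:**
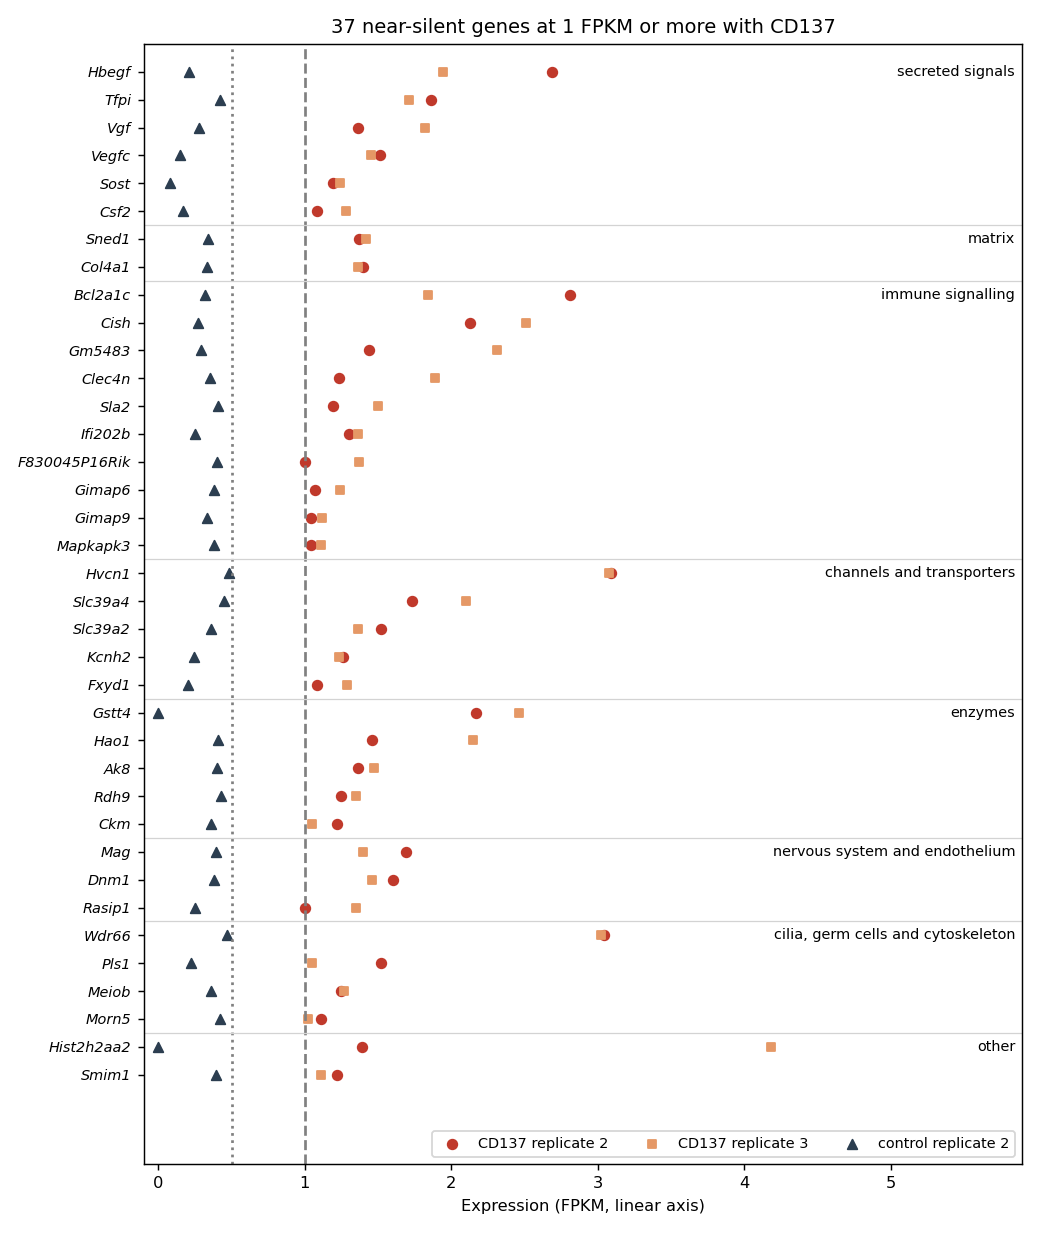
FPKM of each of the 37 genes, grouped by role, on a linear axis: red circles for CD137 replicate 2, orange squares for CD137 replicate 3 and dark triangles for control replicate 2. The dotted line is the control limit of 0.5 FPKM and the dashed line the CD137 limit of 1 FPKM; most CD137 points lie between 1 and 2 FPKM, and Hvcn1 and Wdr66 near 3 FPKM in both CD137 libraries.

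The limits cut through a continuous spread of values, as the plot of CD137 levels against control levels shows. Just inside the control limit were Hvcn1, Wdr66 and Slc39a4, at 0.48, 0.47 and 0.45 FPKM in the control. Just outside it were Hid1 (2.15 and 2.23 FPKM in CD137 cells, against 0.50 FPKM in the control), Akap3 (1.0 and 1.28, against 0.51 FPKM) and Nxpe4 (1.03 and 1.10, against 0.51 FPKM). Just inside the CD137 limit were F830045P16Rik and Rasip1, each with a lower CD137 value of 1.0 FPKM, and Morn5 with 1.02 FPKM. The genes that just missed it were Olfr1444 (0.97 and 1.39 FPKM in CD137 cells, against 0.36 FPKM in the control), Lat (0.95 and 0.99, against 0.19 FPKM) and Tmsb15l (0.94 and 1.07, against 0.43 FPKM). Genes on both sides of each limit thus had similar values. With CD137 replicate 2 alone, 57 genes would meet the rule, and with replicate 3 alone, 52 would.

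**Figure D2:**
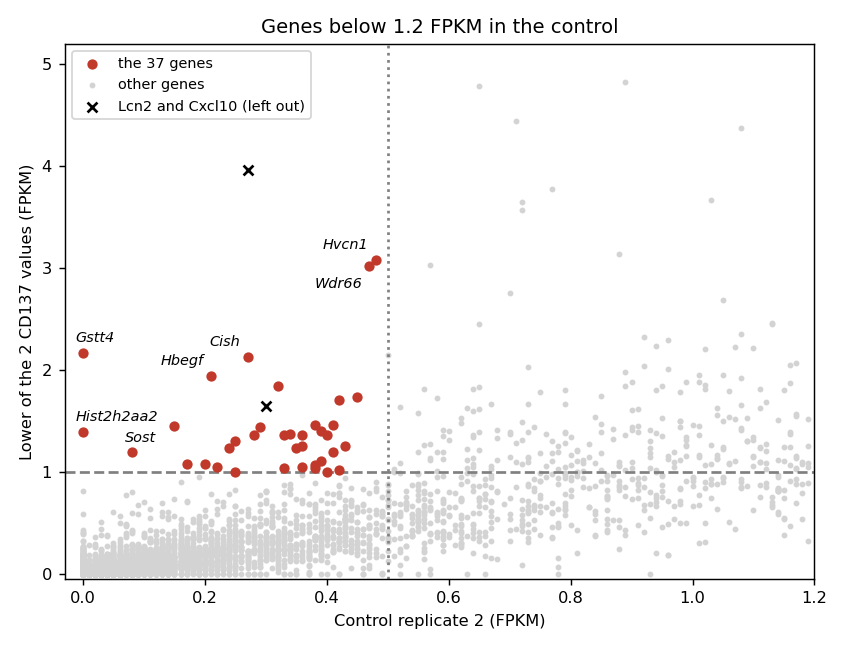
Each point is a gene below 1.2 FPKM in the control; the vertical axis is the lower of the 2 CD137 values (FPKM) and the horizontal axis the control value (FPKM). Red points are the 37 genes, grey points other genes, and crosses Lcn2 and Cxcl10; the red points lie left of the dotted line at 0.5 FPKM and at or above the dashed line at 1 FPKM, with grey points close by on the far side of both lines; genes above the top of the axis, such as Gstt1, are not drawn.

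At these levels each value rests on few fragments. Whole fragments were solved for 36 of the 37 genes from the p-values in the authors' deposited table, with Smim1 unsolved. The 36 genes together held 2378 and 2484 fragments in CD137 cells, against 506 in the control, at depths of 0.983 and 0.988 of the control. Single genes held 9 to 253 fragments in a CD137 library, against 0 to 55 in the control (median 14), and 14 genes had fewer than 10 fragments in the control, 7 of them 3 or fewer. The 95 percent interval of the CD137 to control ratio (exact, for counting error only) reached down to 0.954 for Morn5, the gene with the smallest ratio, at 13 and 12 fragments against 5. For the other 35 genes its lower end was above 1, and for 23 of the 36 it was above 2; the rule chose these values, so the intervals show precision and are not a test. Between the CD137 libraries the fragments of the set differed by a chi-square of 1.54 per gene, and 1.17 without Hist2h2aa2. Counting alone gives about 1 for genes not chosen by their values. The rule kept only genes at 1 FPKM or more in both CD137 libraries, which leaves out genes that differ between them. The chi-square therefore describes the chosen genes and does not measure the spread between these libraries. The interval of the ratio between the CD137 libraries left out 1 for 4 genes: Hist2h2aa2 and Hao1, higher in replicate 3, and Hbegf and Pls1, higher in replicate 2.

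**Figure D3:**
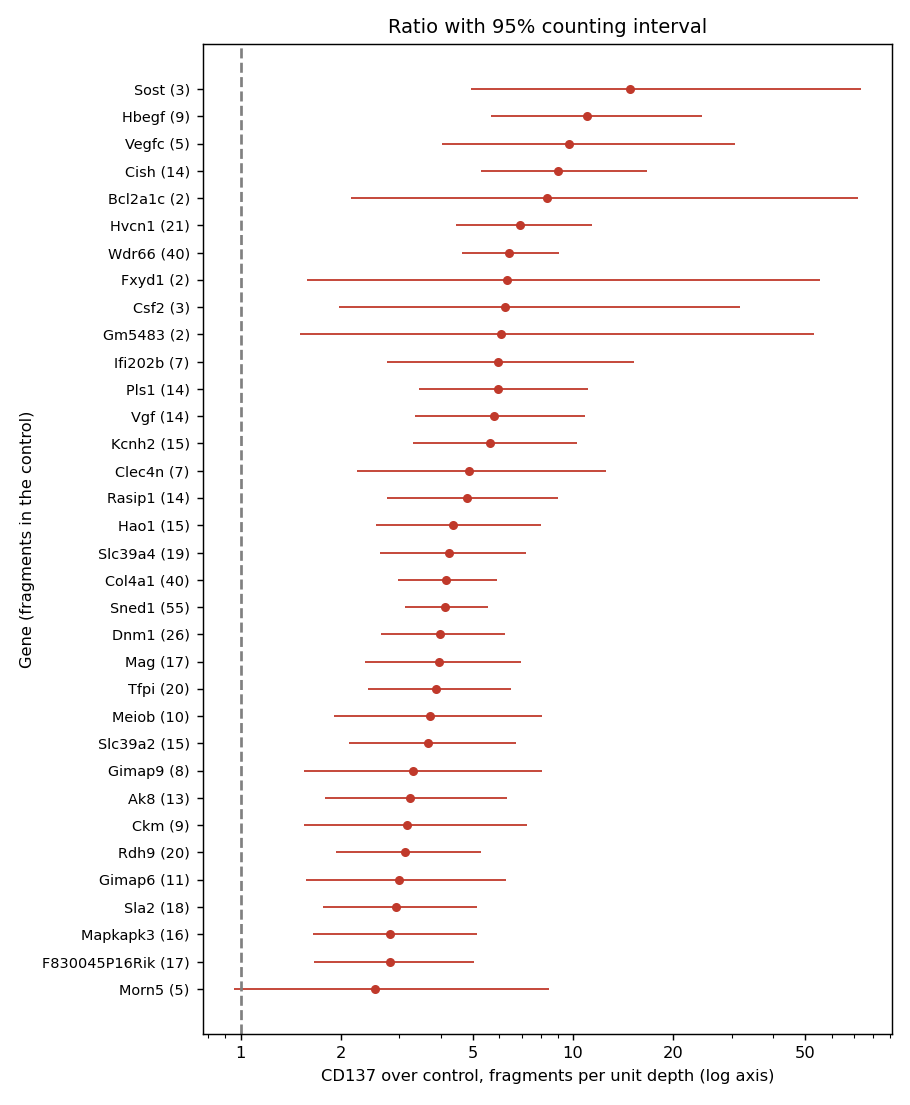
CD137 over control ratio of recovered fragments per unit of depth (points, log axis) with its 95 percent counting interval (lines) for the 34 genes with at least 1 fragment in the control, the number of control fragments standing in brackets. Sost has the highest ratio and, with 3 control fragments, a wide interval; Sned1 with 55 control fragments has a narrow one, and Morn5 is the gene whose interval crosses the dashed line at 1.

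A group of 6 genes encodes secreted signals. The highest was Hbegf, heparin-binding EGF-like growth factor, made by macrophages and smooth muscle, which acts through the EGF receptor (chromosome 18, minus strand, 36504927 to 36515805). Hbegf was at 2.69 and 1.94 FPKM in CD137 cells, against 0.21 FPKM in the control, or 113 and 82 fragments against 9, a ratio of 11.0 (95 percent interval 5.67 to 24.4). CD137 replicate 2 was the higher library. Its receptors were near 0, with Egfr at 0.02 FPKM in each library, while Cd9, a surface partner of the growth factor's membrane form, fell to 107 ± 5.80 FPKM in CD137 cells (SD, n = 2), against 131 FPKM in the control (limma, adjusted p = 0.0134).

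Vegfc, a growth factor of lymphatic vessels (chr8:54077532-54186454, plus strand), was at 1.51 and 1.45 FPKM in CD137 cells, against 0.15 FPKM in the control. That is 49 and 47 fragments against 5, a ratio of 9.74 (4.03 to 30.7). The CD137 libraries were close together and far from the control. The receptors Flt4 and Kdr were at or below 0.03 FPKM in every library.

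Sost encodes sclerostin, a secreted inhibitor of Wnt signalling that binds Lrp5 and Lrp6 and is usually made by osteocytes (chr11:101962458-101967015, minus strand). It was at 1.19 and 1.24 FPKM in CD137 cells, against 0.08 FPKM in the control, on 43 and 45 fragments against 3. The ratio of 14.9 was the largest among the 34 genes with recovered fragments in the control and also one of the least precise (4.93 to 73.6). Among its receptors Lrp5 fell to 12.2 ± 0.311 FPKM in CD137 cells (SD, n = 2), against 15.7 FPKM in the control (limma, adjusted p = 0.0108), and Lrp6, at 9.15 FPKM against 9.42 FPKM, did not pass the test.

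Csf2 encodes GM-CSF, a cytokine for granulocytes and macrophages that T cells and activated macrophages release and that NF-kB is known to induce (chr11:54247270-54249899, minus strand). It was at 1.08 and 1.28 FPKM in CD137 cells, against 0.17 FPKM in the control, which is 16 and 21 fragments against 3 and a ratio of 6.26 (1.98 to 31.7). The receptor chains were expressed throughout. Csf2ra rose to 27.0 ± 0.375 FPKM in CD137 cells (SD, n = 2), against 17.1 FPKM in the control (limma, adjusted p = 0.00171), and Csf2rb to 19.7 ± 0.170 FPKM, against 15.3 FPKM (adjusted p = 0.00773). Of the related factors, Csf1 rose to 3.19 FPKM in CD137 cells, against 1.25 FPKM, and Csf3 was at 0.04 and 0.04 FPKM, against 0.08 FPKM.

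Vgf, a precursor of neuropeptides in neurons and endocrine cells (chr5:137025302-137033351, plus strand), was at 1.36 and 1.82 FPKM in CD137 cells, against 0.28 FPKM in the control. Tfpi encodes the tissue factor pathway inhibitor of blood clotting, best known from endothelium, which blocks tissue factor and factor X (chr2:84432855-84476833, minus strand). Tfpi was at 1.86 and 1.71 FPKM in CD137 cells, against 0.42 FPKM in the control, on 84 and 68 fragments against 20. Tfpi was slightly higher in CD137 replicate 2 and Vgf in replicate 3. Of the proteins that Tfpi blocks, F10, the gene of factor X, fell to 3.73 ± 0.0778 FPKM in CD137 cells (SD, n = 2), against 7.81 FPKM in the control (limma, adjusted p = 0.0020), and F3, tissue factor, at 1.05 FPKM against 1.23 FPKM, did not pass.

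The extracellular matrix was represented by 2 genes. Col4a1, a chain of the type IV collagen of basement membranes (chr8:11198423-11312826, minus strand), was at 1.4 and 1.36 FPKM in CD137 cells, against 0.33 FPKM in the control, on 165 and 161 fragments against 40. Col4a2, its usual partner chain, is transcribed from the neighbouring start in the opposite direction and stayed at 0.05 and 0.06 FPKM in CD137 cells, against 0.05 FPKM in the control. Col4a2 was thus below the limit in every library, while Col4a5, an X-linked chain, rose to 23.9 FPKM in CD137 cells, against 16.5 FPKM (limma, adjusted p = 0.00256). Sned1, a matrix glycoprotein with the longest transcript of the set (chr1:93235816-93301065, plus strand; 8997 bases), was at 1.37 and 1.42 FPKM in CD137 cells, against 0.34 FPKM in the control, on 218 and 229 fragments against 55.

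The largest group, 10 genes, belongs to immune signalling and recognition. Cish encodes a SOCS family protein that is switched on by STAT5 and damps cytokine receptor signals, usually in lymphocytes and other blood cells (chr9:107296659-107302784, plus strand). It was at 2.13 and 2.51 FPKM in CD137 cells, against 0.27 FPKM in the control, or 114 and 135 fragments against 14, a ratio of 9.02 (5.28 to 16.7). Stat5a and Stat5b did not pass the test, at 6.90 FPKM against 6.38 FPKM and 7.92 FPKM against 7.53 FPKM. Among the other SOCS genes, Socs2, which STAT5 is also known to induce, was at 0.37 and 0.48 FPKM in CD137 cells, against 0.04 FPKM in the control. It missed the limit of 1 FPKM, but on these low values it was 10.6-fold the control, where Cish was 8.59-fold by FPKM. Socs1, also low, was at 0.43 and 0.09 FPKM in CD137 cells, against 0.05 FPKM in the control. Socs3 did not pass at 4.57 FPKM against 3.77 FPKM, and neither did Socs4, Socs5, Socs6 and Socs7.

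Mapkapk3, a kinase that p38 MAP kinase activates in most tissues (chr9:107254926-107289877, minus strand), lies beside Cish. It was at 1.04 and 1.11 FPKM in CD137 cells, against 0.38 FPKM in the control. The starts of the pair face away from each other across 6.78 kb, the closest pair in the set. Mapkapk2, the close relative, was far more abundant at 200 FPKM in CD137 cells, against 187 FPKM in the control, and did not pass.

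Gimap6 and Gimap9, small GTPases of the immunity-associated family best known from lymphocytes, form the second pair within 100 kb. Gimap6 (chr6:48701583-48708244, minus strand) was at 1.07 and 1.24 FPKM in CD137 cells, against 0.38 FPKM in the control. Gimap9 (chr6:48676135-48678704, plus strand) was at 1.04 and 1.12 FPKM, against 0.33 FPKM. Their ends face each other 22.9 kb apart. The other 4 family genes with a value did not share this: Gimap1 was at 2.08 and 2.60 FPKM in CD137 cells, against 2.67 FPKM in the control, and Gimap3, Gimap5 and Gimap8 were at or below 0.20 FPKM in every library.

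Sla2, an adaptor that damps T and B cell receptor signals (chr2:156872485-156887241, minus strand), was at 1.19 and 1.5 FPKM in CD137 cells, against 0.41 FPKM in the control. T cell markers, 5 of 7 with a value, summed to 5.31 and 4.93 FPKM in CD137 cells, against 3.71 FPKM, nearly all of it Lck at 4.59 and 4.28 FPKM against 3.16 FPKM. Cd3e and Cd3g, the defining markers, had no value and Cd3d was at 0.27 and 0.13 FPKM against 0.04 FPKM.

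Clec4n encodes dectin-2, a lectin by which myeloid cells recognise fungal mannans (chr6:123229843-123247024, plus strand). It was at 1.23 and 1.89 FPKM in CD137 cells, against 0.35 FPKM in the control. The neighbouring lectin Clec4d rose to 44.1 ± 0.0141 FPKM in CD137 cells (SD, n = 2), against 35.1 FPKM (limma, adjusted p = 0.00549). Of the 9 other Clec4 genes with a value, 5 were expressed, and 3 of these rose and 0 fell; over all expressed genes, 24.4 percent rose and 18.2 percent fell. Of the proteins that carry the dectin-2 signal, the chain Fcer1g and the adaptor Card9 rose, by 0.20 and 0.19 on the log2(FPKM + 1) scale, and the kinase Syk did not pass the test, at 20.8 FPKM in CD137 cells and 20.8 FPKM in the control.

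Ifi202b, a DNA-binding protein of the interferon-inducible HIN-200 family, best known from lupus-prone mouse strains (chr1:173962569-173982844, minus strand), was at 1.30 and 1.36 FPKM in CD137 cells, against 0.25 FPKM in the control. The CD137 libraries differed by less than 1.25-fold. Of its 7 relatives in the same cluster, 5 were expressed, and 4 rose (Ifi203, Ifi204, Mndal and Aim2), against 24.4 percent of all expressed genes. The fifth, Mnda, at 2.55 FPKM against 1.99 FPKM, did not pass.

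Bcl2a1c is 1 of 4 copies of the A1 survival gene of blood cells (chr9:114330135-114330578, plus strand). It was at 2.81 and 1.84 FPKM in CD137 cells, against 0.32 FPKM in the control, on only 20 and 13 fragments against 2, a ratio of 8.37 with an interval of 2.14 to 72.0. Reads may be shared among the copies, so the level of 1 copy is uncertain. The 4 copies summed to 309 and 326 FPKM in CD137 cells, against 133 FPKM in the control, and Bcl2a1c made up 0.733 percent of that sum in CD137 cells, against 0.241 percent in the control.

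F830045P16Rik, which the table annotates as a member of the signal-regulatory protein family (chr2:129457797-129536602, minus strand), was at 1.0 and 1.37 FPKM in CD137 cells, against 0.40 FPKM in the control. Its expressed neighbour Sirpa, the best known gene of that family, did not pass the test at 137 FPKM against 125 FPKM. Gm5483, which the table annotates as a cystatin of the A and B type, inhibitors of cysteine proteases (chr16:36184212-36188111, plus strand), was at 1.44 and 2.31 FPKM in CD137 cells, against 0.29 FPKM in the control. With a transcript of 414 bases it rests on 9 and 15 fragments against 2, the fewest of the set in CD137 replicate 2.

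Channels and transporters made up 5 genes and held the one with the highest CD137 mean. Hvcn1 encodes the voltage-gated proton channel that lets protons leave phagocytes and B cells during the oxidative burst (chr5:122206807-122242297, plus strand). It was at 3.09 and 3.08 FPKM in CD137 cells, against 0.48 FPKM in the control, on 146 and 141 fragments against 21, a ratio of 6.94 (4.45 to 11.4). The CD137 libraries were nearly equal. The oxidase that this channel serves did not follow it as a unit, since Cybb fell to 145 ± 2.33 FPKM in CD137 cells (SD, n = 2), against 217 FPKM (limma, adjusted p = 0.00113), Ncf1 fell by 0.42 on the log2(FPKM + 1) scale, and Cyba rose by 0.26.

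The zinc importers Slc39a4 and Slc39a2 are best known from the intestine and the skin. Slc39a4 (chr15:76612383-76617379, minus strand) was at 1.73 and 2.10 FPKM in CD137 cells, against 0.45 FPKM in the control. Slc39a2 (chr14:51893088-51896745, plus strand) was at 1.52 and 1.36 FPKM in CD137 cells, against 0.36 FPKM in the control. Both were about 4-fold the control. The other 11 genes of the family with a value ran from 0.797-fold to 1.57-fold the control where it was above 0, and of the 9 expressed ones 2 rose, 1 fell and 6 did not pass, where 24.4 percent of all expressed genes rose and 18.2 percent fell.

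Kcnh2, the potassium channel that ends the heart's action potential (chr5:24319585-24351671, minus strand), was at 1.26 and 1.23 FPKM in CD137 cells, against 0.24 FPKM in the control, on 84 and 82 fragments against 15. Fxyd1, or phospholemman, regulates the sodium pump in heart and skeletal muscle (chr7:31051678-31055874, minus strand). It was at 1.08 and 1.29 FPKM in CD137 cells, against 0.20 FPKM in the control, on 11 and 14 fragments against 2.

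The enzymes were 5 genes, among them Hao1, known from liver, Ckm, known from muscle, and Ak8, known from cilia. Gstt4, a theta class glutathione S-transferase (chr10:75814943-75822564, minus strand), was at 2.17 and 2.46 FPKM in CD137 cells and was listed at 0 in the control. It had 36 and 41 fragments in CD137 cells, against 0 fragments in the control, which allows up to 0.178 FPKM there (3 fragments), so the CD137 mean was at least 13.0-fold higher against that limit. The 95 percent interval used for the other genes is wider and starts at 10.3-fold. The gene sits in a cluster of theta class genes. Gstt1, its neighbour 16.4 kb away, rose to 14.3 ± 0.502 FPKM in CD137 cells (SD, n = 2), against 0.60 FPKM in the control, a log2(FPKM + 1) difference of 3.25 (limma, adjusted p = 0.000552). Gstt3 rose to 19.1 FPKM against 8.93 FPKM, and Gstt2, at 4.91 FPKM against 3.46 FPKM, did not pass (adjusted p = 0.0807).

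Hao1 encodes the glycolate oxidase of liver peroxisomes (chr2:134497361-134554352, minus strand). It was at 1.46 and 2.15 FPKM in CD137 cells, against 0.41 FPKM in the control. Rdh9, a retinol dehydrogenase of the short-chain family (chr10:127776405-127792697, plus strand), was at 1.25 and 1.35 FPKM in CD137 cells, against 0.43 FPKM in the control. Hepatocyte markers were low in every library, with 3 of 4 having a value and a sum of 0.71 and 0.63 FPKM in CD137 cells, against 0.28 FPKM in the control, and the defining marker Alb at 0.25 and 0.19 FPKM against 0.11 FPKM; their part in these enzymes was not tested.

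Ckm, the creatine kinase of skeletal and heart muscle (chr7:19411094-19421583, plus strand), was at 1.22 and 1.05 FPKM in CD137 cells, against 0.36 FPKM in the control. Ckb, the form that these cells mainly express, fell to 105 ± 3.62 FPKM in CD137 cells (SD, n = 2), against 140 FPKM in the control (limma, adjusted p = 0.00317). The other muscle markers with a value were Des, at 0.61 and 0.63 FPKM against 0.42 FPKM, and Actn2, at 0.72 and 0.81 FPKM against 0.72 FPKM. Ak8, an adenylate kinase associated with cilia (chr2:28698222-28813165, plus strand), was at 1.36 and 1.47 FPKM in CD137 cells, against 0.40 FPKM in the control.

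Genes best known from the nervous system and from endothelium numbered 3. Mag, the myelin-associated glycoprotein of oligodendrocytes and Schwann cells (chr7:30899175-30914921, minus strand), was at 1.69 and 1.4 FPKM in CD137 cells, against 0.39 FPKM in the control. Dnm1, the dynamin of neuronal synapses that pinches off endocytic vesicles (chr2:32308471-32353339, minus strand), was at 1.60 and 1.46 FPKM in CD137 cells, against 0.38 FPKM in the control. Dnm2, the dynamin found in most cells, rose to 79.4 ± 1.91 FPKM in CD137 cells (SD, n = 2), against 50.5 FPKM in the control (limma, adjusted p = 0.00127). Neuronal markers, 3 of 5 with a value, summed to at most 0.07 FPKM in any library, and Syt1 and Nefl had no value. Rasip1, a regulator of small GTPases in blood vessel endothelium (chr7:45627537-45639092, plus strand), was at 1.0 and 1.35 FPKM in CD137 cells, against 0.25 FPKM in the control. Endothelial markers summed to 1.71 and 1.85 FPKM in CD137 cells, against 1.51 FPKM, nearly all of it Pecam1, which macrophages also express, with Cdh5 at or below 0.13 FPKM.

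Another 4 genes are known from cilia, germ cells or the cytoskeleton. Wdr66, annotated in the table as a cilia and flagella protein and best known from testis (chr5:123253856-123327484, plus strand), was at 3.04 and 3.02 FPKM in CD137 cells, against 0.47 FPKM in the control. With 253 and 252 fragments against 40 it had the most fragments in the set, and its ratio of 6.41 (4.64 to 9.08) was among the most precise. Pls1, the plastin of intestinal microvilli, which bundles actin (chr9:95752642-95845306, minus strand), was at 1.52 and 1.05 FPKM in CD137 cells, against 0.22 FPKM in the control. The plastin of leukocytes, Lcp1, did not pass at 522 FPKM against 532 FPKM. Pls1 and Hbegf were higher in CD137 replicate 2, the library with the higher epithelial markers, whose part was not tested.

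Meiob, a single-strand DNA-binding protein of meiosis (chr17:24804301-24839790, plus strand), was at 1.25 and 1.27 FPKM in CD137 cells, against 0.36 FPKM in the control. Its partner in meiotic recombination, Spata22, had no value. Morn5, a small protein with MORN repeats (chr2:36049473-36079709, plus strand), was at 1.11 and 1.02 FPKM in CD137 cells, against 0.42 FPKM in the control. Germ cell markers, 2 of 4 with a value, summed to 0.06 and 0.18 FPKM in CD137 cells, against 0.18 FPKM in the control, so neither CD137 library was above the control.

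The remaining 2 genes are Smim1 and Hist2h2aa2. Smim1, a small membrane protein of red blood cells (chr4:154020470-154026044, minus strand), was at 1.22 and 1.11 FPKM in CD137 cells, against 0.39 FPKM in the control. Hist2h2aa2, a replication-dependent histone H2A gene (chr3:96239779-96240374, minus strand), was at 1.39 and 4.18 FPKM in CD137 cells and was listed at 0 in the control. The CD137 libraries were 3.01-fold apart, the widest in the set, on 13 and 41 fragments. With 0 control fragments, which allows up to 0.315 FPKM there, the CD137 mean was at least 9.13-fold higher against that limit of 3 fragments, and CD137 replicate 2 alone at least 4.41-fold. The 95 percent interval of the mean starts at 7.18-fold. Its near-identical copy Hist2h2aa1 ran the other way, at 6.15 and 2.07 FPKM in CD137 cells, against 4.01 FPKM in the control. The 2 copies together were at 7.54 and 6.25 FPKM in CD137 cells, against 4.01 FPKM in the control, 1.72-fold, so the level of Hist2h2aa2 alone is uncertain. Histone messages of this class mostly lack a poly(A) tail, and the RNA was selected with oligo-dT beads.

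The set is spread over 16 chromosomes, with 7 genes on chromosome 2 and 4 each on chromosomes 5, 7 and 9. Apart from the Mapkapk3 and Cish pair and the Gimap pair, the next closest were Mag and Fxyd1 on chromosome 7, 137 kb apart, and Hvcn1 and Wdr66 on chromosome 5, about 1012 kb apart. By RefSeq all 37 are protein coding. The longest transcript had a median of 2365 bases, against 3095 bases over the 10720 expressed genes, those reaching 1 FPKM in any library. In the table's Gene Ontology annotation, 14 of 34 annotated genes of the set (41.2 percent) carried the term extracellular region, against 27.5 percent of near-silent genes and 19.8 percent of expressed genes. For plasma membrane the shares were 38.2 percent in the set, 35.3 percent of near-silent genes and 18.7 percent of expressed genes, and for nucleus 14.7, 24.2 and 46.9 percent. On membrane and nuclear terms the set lay closer to near-silent genes than to expressed ones.

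The genes around the set were not used by the rule and were tested. In limma on log2(FPKM + 1) over 10720 expressed genes, 2614 genes were higher (24.4 percent) and 1949 were lower (18.2 percent) in CD137 cells at an adjusted p under 0.05, or 42.6 percent in either direction. The control is 1 library, so the spread comes from the CD137 libraries alone, and the fit over all 16003 genes called 0 genes, with 5281 at an unadjusted p under 0.05 and a smallest adjusted p of 0.0802. All 37 genes passed the filter on low values, each through its CD137 libraries, so their own calls are not counted. Among 55 distinct expressed neighbours within 100 kb, 15 were higher (27.3 percent) and 8 lower (14.5 percent), shares near those of all expressed genes. Their median log2 difference was 0.10, against 0.03 over all genes tested, and 4 (7.27 percent) were higher by 1.5-fold or more on that scale, against 5.21 percent of all. Gstt1 and Hpn, both counted as higher, were at 0.60 and 0.68 FPKM in the control, and Gstt1 is among those 4. They passed the filter only through their CD137 libraries, which favours a rise. Fut1 and Ntn5, at 0.55 and 0.95 FPKM in the control, passed it in the same way and were not called.

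The neighbour that changed most was Gstt1, given above beside Gstt4. Spaca9, which overlaps Ak8 on the opposite strand, was next: it rose to 6.61 and 9.28 FPKM in CD137 cells, against 3.25 FPKM in the control, a log2 difference of 1.06 ± 0.18 (SE; adjusted p = 0.0108). Strandedness is not given in the sources used here, so reads of Ak8 and Spaca9, or of any other overlapping pair, cannot be told apart where they overlap. Ifi203, beside Ifi202b, rose by 0.79 on the log2 scale (adjusted p = 0.00155) to 14.55 and 14.99 FPKM, against 8.09 FPKM. Hagh, which starts 0.288 kb past Meiob on the same strand, rose by 0.63 to 48.4 and 53.7 FPKM, against 32.6 FPKM. Hemk1 beside Cish and Mapkapk3 (0.56), Hpn near Fxyd1 (0.55), Tgif2 near Sla2 (0.47) and LOC108169093 near Kcnh2 (0.45) also rose. The neighbours with the largest decreases were Atg9b near Kcnh2 (-0.67), Ppp1cc near Hvcn1 (-0.46) and Atr near Pls1 (-0.42). Among the other genes that overlap one of the set, 1110008F13Rik (at Sla2; 103 and 100.48 FPKM, against 103 FPKM), Lrrc47 (at Smim1; 18.4 and 19.3 FPKM, against 21.1 FPKM) and Tctn1 (at Hvcn1; 3.80 and 4.13 FPKM, against 3.13 FPKM) did not pass, and Col4a2, Gm33153 (at Vegfc) and Gm12223 (at Csf2) were too low to test.

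**Figure D4:**
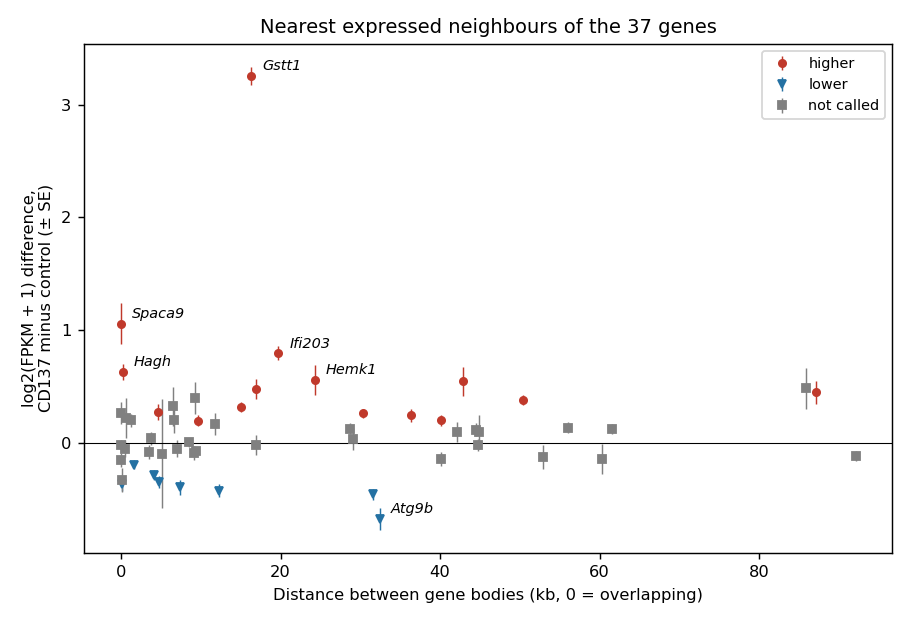
Difference in log2(FPKM + 1), CD137 minus control, of the 55 expressed neighbours of the 37 genes, with standard error bars, against the distance between gene bodies in kb. Red circles are neighbours called higher, blue triangles called lower and grey squares not called; Gstt1 at 3.25 and Spaca9 at 1.06 lie above the rest.

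Pathway lists give the setting in which the set stands. Of 38 NF-kB targets listed, 28 were expressed, and 18 rose and 3 fell, with a median log2 difference of 0.65; over all genes tested 24.4 percent rose, 18.2 percent fell and the median was 0.03. Csf2 is the sole gene of the set on that list, and without it 17 of 27 rose and 3 fell. Those 17 still include Lta (4.44 and 5.42 FPKM in CD137 cells, against 0.71 FPKM in the control) and Mmp9 (4.79 and 5.14, against 0.65 FPKM). Both passed the filter on low values only through their CD137 libraries, as the 37 genes did. The filter favours a rise for such genes, so their calls carry that limit. Of 25 type I interferon genes listed, 13 were expressed, and 7 rose and 0 fell, with a median of 0.34; none of the 37 is on that list. Receptors, partners and relatives of the 37 genes, picked after the genes were known, did not move one way. Of 25 expressed, 6 rose, 8 fell and 11 did not pass, where 24.4 percent of all genes tested rose and 18.2 percent fell. The other marker lists were low. Sums in CD137 replicates 2 and 3 and in the control were 1.64 and 1.78 against 0.87 FPKM for dendritic cells, 1.03 and 1.93 against 0.65 FPKM for B cells, and 0.70 and 0.74 against 0.45 FPKM for the erythroid and megakaryocyte list. For NK cells, neutrophils, and mast cells and basophils no sum was above 0.41 FPKM in any library.

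Promoter sequence was the other measure the rule did not use. Of the 37 genes, 30 matched a RefSeq promoter (GRCm38.p6, the assembly of mm10), taken from 250 bases before to 50 bases after the start. The RefSeq start nearest the gene's start in the authors' coordinates was used. For Kcnh2 it lay 22080 bases away, for Ak8 1939, for Fxyd1 1021 and for Slc39a2 522. The windows of these genes may therefore belong to another start than the one in use. Promoters of genes used in many tissues tend to be rich in the dinucleotide CG, and promoters of tissue-restricted genes tend to be poor in it. The ratio of observed CG to that given by the C and G content had a median of 0.334 in the set, against 0.408 in 3732 near-silent genes and 0.784 in 8687 expressed genes. It was below 0.4 for 18 of 30 genes (60.0 percent), against 49.1 percent of near-silent and 13.0 percent of expressed genes. The ends of this range were the 2 genes listed at 0 in the control. Gstt4 had the lowest ratio, 0.049, and Hist2h2aa2 the highest, 1.19. The 100 bases before their RefSeq starts, 5′ to 3′ on the minus strand with each CG in capitals, are at chr10:75822544-75822643 with 1 CG and chr3:96240375-96240474 with 15, and are shown because they span the range of the set.
Gstt4: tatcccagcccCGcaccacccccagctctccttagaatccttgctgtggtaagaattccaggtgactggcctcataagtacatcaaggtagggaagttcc
Hist2h2aa2: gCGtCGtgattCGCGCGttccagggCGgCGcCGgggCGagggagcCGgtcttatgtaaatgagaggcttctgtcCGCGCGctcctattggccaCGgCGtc

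**Figure D5:**
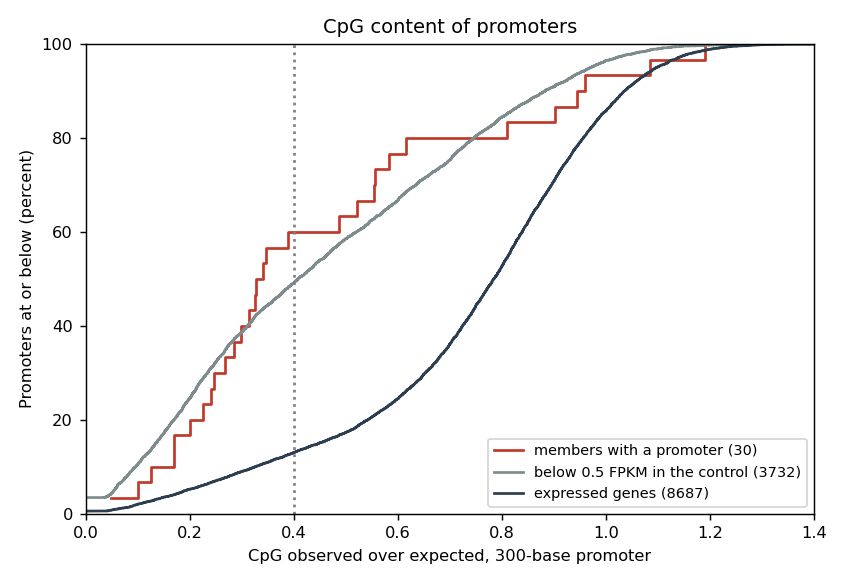
Cumulative share of promoters (percent) by the observed over expected CG ratio of the promoter, for the 30 genes of the set with a promoter (red), 3732 genes below 0.5 FPKM in the control (grey) and 8687 expressed genes (dark blue). The red line runs close to the grey one, with 60.0 and 49.1 percent below the dotted line at 0.4, against 13.0 percent for expressed genes.

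Motifs of inducible transcription factors were searched in the same promoters, where 30 promoters allow only coarse shares. Either of the letter strings GGGNNTTCC and GGGANTTTC, searched on both strands for NF-kB, was present in 1 of 30 promoters of the set (3.3 percent), against 8.0 percent of 12575 promoters of genes with a value. Among near-silent genes 5.7 percent held the first string and 1.4 percent the second. That 1 was Wdr66, with GGGCTTTCC starting at position -142 from the RefSeq start. The string GAAANNGAA, used for interferon response, was present in Csf2 alone (3.3 percent, against 7.3 percent of all and 8.1 percent of near-silent genes), at position -199. The AP-1 string TGACTCA was present in Rdh9 alone (3.3 percent, against 4.0 percent of all and 5.5 percent of near-silent genes). TATAAA was present in 4 promoters, those of Fxyd1, Gimap6, Ifi202b and Tfpi (13.3 percent, against 8.5 percent of all and 13.4 percent of near-silent genes). It began at position -219 in Gimap6, -127 in Tfpi, 2 in Fxyd1, and 43 and 45 in Ifi202b, so in Fxyd1 and Ifi202b it lay past the start. In Fxyd1, Gimap6 and Tfpi the match was on the opposite strand. A match is a run of letters and not a shown binding site, and a string not found says only that these letters are not in this window. The stretches around the NF-kB string of Wdr66 (chr5:123253596-123253695, plus strand) and the interferon string of Csf2 (chr11:54250049-54250148, minus strand) are given 5′ to 3′ with the string in capitals, since these are the matches of the set for the pathways listed above.
Wdr66: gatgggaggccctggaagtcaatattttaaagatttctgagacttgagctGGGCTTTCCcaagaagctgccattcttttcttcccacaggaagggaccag
Csf2: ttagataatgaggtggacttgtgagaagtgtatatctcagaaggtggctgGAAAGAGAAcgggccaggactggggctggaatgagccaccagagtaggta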

How the data were processed

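Oligo-dT beads were used to prepare the RNA libraries, per the labels' protocols. Per the file headers, the authors deposited expression as FPKM, 1 value for each gene in each library, with values rounded to 0.01. The submitters' processing notes name HISAT2, Bowtie2, RSEM and mm10 but give no version and no role. The deposited table also holds log2 ratios between pairs of libraries, p-values of a Poisson test on 2 libraries and adjusted p-values of that test, treated as a score because some exceed 1, per the file headers; the log2 ratios and the score were not used. It lists 21990 genes, of which 16003 have a value; 1 further line, a broken annotation, was left out.

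Genes reaching 1 FPKM in any library were tested with limma 3.58.1 in R 4.3.3, with a mean-variance trend, on log2(FPKM + 1), 2 CD137 libraries against 1 control with 1 residual degree of freedom, adjusted by Benjamini-Hochberg over all genes tested; "rose" and "fell" mean an adjusted p under 0.05 in that fit. Simulated data for this comparison held 10607 genes, 49 or 50 of them changed at each fold. The fit recovered 6.1 percent of those set to 1.2-fold, 76.0 percent at 1.5-fold, 89.8 percent at 2-fold and 98.0 percent at 4-fold. It made 0 false calls. The simulated libraries differed by counting and by an assumed spread of 2 percent, the same in both groups. They held no difference between cultures, so the 0 cannot show errors that come from the single control library. The count test planned for counts was not used, since the table holds FPKM.

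Depth was recovered for 36 of the 37 genes by finding the whole fragments whose Poisson tail gives the deposited p-values. In 222 simulated sets 100 percent were unique and right. Those sets were drawn as whole fragments under the same model, so they cannot show whether the deposited values follow it. Smim1 had no solution, and for Tfpi the ratio of replicate 3 over 2 was 0.805 in fragments, against 0.919 in FPKM. Depths relative to the control came from 55 and 43 genes. Intervals are exact Clopper-Pearson at 95 percent for counting error only; a count of 0 allows up to 3 fragments. Neighbours are, for each gene, the nearest expressed gene on either side within 100 kb and any overlapping gene, by the table's mm10 coordinates. Named genes are every gene of the set, the 3 on each side of a limit, overlapping neighbours and the 10 other called neighbours with the largest change; partners and relatives were added after values were seen. The genes of the set and all lists were chosen with earlier results of these data known. Alternatives were the limits of the rule, the pseudocount (0.1 and 0.5), the filter, the distance (50 and 200 kb) and leaving out a CD137 library.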

Additional observations from a re-analysis of the deposited data

How the results depend on the processing

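The number of genes in the set follows its limits: 208 genes with CD137 libraries at 0.5 FPKM or more, 4 at 2 FPKM or more, 9 with the control below 0.25 FPKM, and 197 with it below 1 FPKM, against 37. With 1 CD137 library left out it was 52 to 57. The median log2 difference of the 37 genes, 0.87, was 1.86 with 0.1 FPKM added and 1.26 with 0.5, and 0.87 to 0.91 with a CD137 library left out. Without the filter on low values limma called 0 genes higher and 0 lower, hence 0 neighbours and 0 genes of the NF-kB and interferon lists; the cause was not tested. With other pseudocounts, and for neighbours with 50 or 200 kb, and for all genes with a filter at 2 FPKM, the counts of calls stayed within 1.5 times. Leaving out a CD137 library leaves the fit no residual degree of freedom, so it gives values and no test. No paired analysis was possible because the 2 groups of the table share only replicate number 2.

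Depth limits single values: 14 of 36 genes had fewer than 10 control fragments, and 1 control library carries no replicate error. Genes with near-identical copies (Bcl2a1c, Hist2h2aa2) and those overlapped by an expressed gene on the other strand (Ak8, Sla2, Smim1, Hvcn1) are uncertain.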
